A study of Homo sapiens with 4 samples.

Results

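The mRNA of 10 genes that report on the ERK pathway was examined on VHL restoration in 786-O cells: the MAP kinase phosphatases DUSP4, DUSP5 and DUSP6, the Sprouty genes SPRY2 and SPRY4, the Spred genes SPRED1 and SPRED2, the ETS factors ETV4 and ETV5, and PHLDA1. The genes were taken by symbol, and all 10 are among the 12912 genes of the count table. RNA-seq libraries came from 2 sublines of 786-O, a clear cell renal cell carcinoma line without functional VHL. 786-O-Ctrl (2 libraries) is VHL-null. 786-O-VHL (2 libraries) received HA-tagged VHL by retrovirus. Per the labels, both groups are the triple-reporter (TR) versions, which express GFP, luciferase and thymidine kinase from a further retroviral vector, and both grew in RPMI1640 with serum. Each group is 1 subline, so that p-values measure the spread between RNA samples of a subline and the vector and the subline cannot be told apart. In bulk RNA, a change in the number of expressing cells and a change in the RNA per cell cannot be told apart either.

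Growth factor receptors activate RAS, which acts through the kinases RAF, MEK and ERK. Active ERK induces transcription of its own brakes. DUSP proteins remove the activating phosphates from MAP kinases, Sprouty proteins interrupt the signal between receptor and RAF, and SPRED proteins bring neurofibromin to RAS. ETV4, ETV5 and PHLDA1 are induced by the pathway as well, and the mRNAs of such genes are widely used as a readout of ERK output in tumor cells. These data hold mRNA only, and ERK activity itself was not measured.

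Depth was uneven. Library totals ran from 2807779 counts in 786-O-VHL replicate 1 to 22141263 counts in the deeper 786-O-Ctrl library. The 2 columns of 786-O-Ctrl carry the same replicate number and are told apart by depth. Levels are given as CPM, with library sizes corrected for composition by TMM factors. At this scale 3 counts, the limit that a count of 0 allows, were 1.02 CPM in 786-O-VHL replicate 1 and at most 0.199 CPM elsewhere, for counting error only. VHL mRNA was 42.9 and 43.9 CPM in 786-O-Ctrl and 178 and 163 CPM in 786-O-VHL, so the restored gene followed the labels. All 9 renal markers examined were in the table, with PAX8 at 274 ± 3.81 CPM in 786-O-Ctrl and at 152 ± 20.5 CPM in 786-O-VHL (SD, n = 2 each). Of 10 markers of leukocytes, endothelium, fibroblasts and hepatocytes, only PECAM1, with at most 9 counts in a library, and COL1A1, at 6.83 CPM in 786-O-VHL, were in the table.

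Of the 10 genes, 9 rose on VHL restoration (edgeR FDR < 0.05), 0 fell, and ETV4 did not pass. Over the 12335 genes tested, 64.5% passed in either direction, 32.6% of all genes as higher and 31.9% as lower. With library totals in place of TMM factors 9 members passed as well, while 62.1% of the genes called were higher, against 50.5% with TMM, and the median of all genes moved to 0.15. The median log2 fold change (786-O-VHL over 786-O-Ctrl) of the 10 genes was 0.78, against 0.02 for all genes tested. DUSP4, DUSP6 and PHLDA1 passed 2-fold at this FDR, which 17.5% of all genes did. No member passed the study's threshold of 4-fold with FDR < 0.01, reached by 4.46% of all genes, and DUSP4 came closest at 3.92-fold. The groups did not overlap in CPM for any of the 10 genes, as for 80% of all genes tested. ETV4 was separated in the other direction from the remaining 9.

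**Figure D1:**
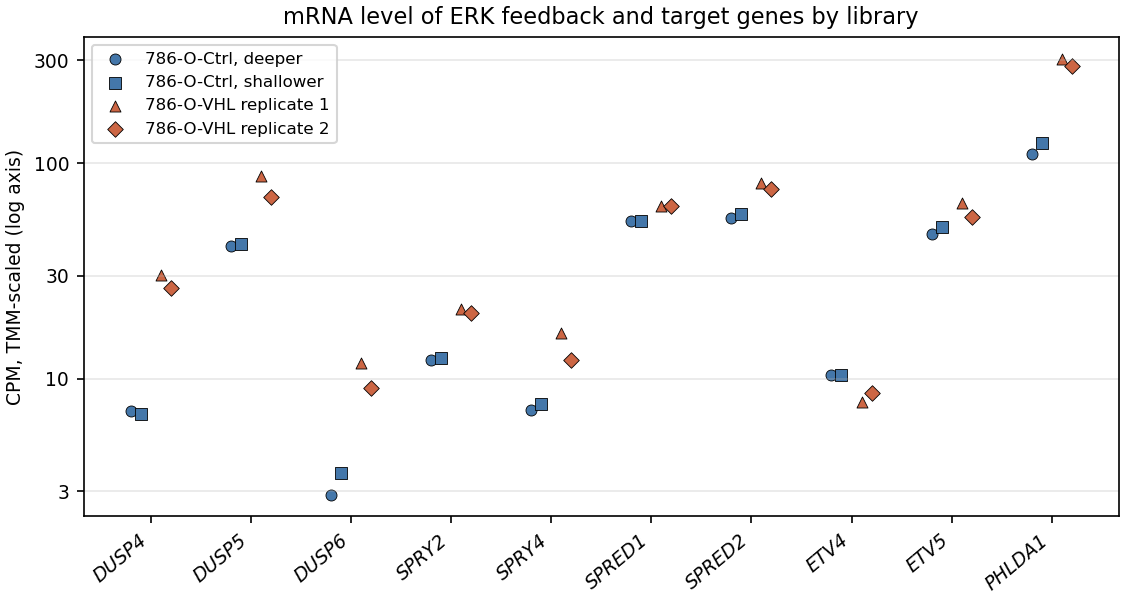
CPM (log axis) of each of the 10 genes in the 4 libraries, with 1 point per library and no error bars. Both 786-O-VHL points lie above both 786-O-Ctrl points for 9 genes and below them for ETV4.

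The 3 MAP kinase phosphatases rose together but from very different levels. DUSP4 (ENSG00000120875.9), a nuclear phosphatase of ERK and of the stress kinases JNK and p38, spans bases 29190581 to 29208201 of chromosome 8 (GRCh37, as for all gene positions here; minus strand). Its counts were 149 (deeper 786-O-Ctrl), 103 (shallower 786-O-Ctrl), 89 (786-O-VHL replicate 1) and 444 (replicate 2), which are 7.08, 6.85, 30.2 and 26.4 CPM. The shallowest library thus held the highest DUSP4 level. The log2 fold change was 1.97 (SE 0.145, edgeR FDR = 1.58e-12), and 4.64% of all genes tested changed by as much or more.

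DUSP6 (ENSG00000139318.8), the cytoplasmic phosphatase that is specific for ERK, lies on the minus strand of chromosome 12 from 89741012 to 89746278, with an annotated lncRNA on the opposite strand. It was among the less abundant transcripts, at 2.90 and 3.66 CPM in 786-O-Ctrl and 11.9 and 9.03 CPM in 786-O-VHL, from 61, 55, 35 and 152 counts. All 4 values were above the limit of a count of 0, and the gap between the groups was wider than either gap between replicates. The log2 fold change of 1.59 had the widest error of the 10 genes (SE 0.231, edgeR FDR = 9.06e-07).

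DUSP5 (ENSG00000138166.6), a nuclear phosphatase specific for ERK, lies on the plus strand of chromosome 10 from 112257665 to 112271291. Its mRNA was 41.1 and 42.0 CPM in 786-O-Ctrl and 87.2 and 69.7 CPM in 786-O-VHL. Both 786-O-VHL libraries were higher, although they differed from each other by 0.32 on the log2 scale. The log2 fold change was 0.84 (SE 0.0867, edgeR FDR = 1.66e-09). DUSP5 was the main DUSP transcript of the 3 on a per-length scale, with 90.4% and 89.8% of their summed RPKM (CPM per kilobase of exon) in 786-O-Ctrl, and 82.6% and 82.2% after VHL restoration. The share of DUSP4 went from 5.43% and 5.10% to 9.97% and 10.8%.

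RefSeq promoter windows (GRCh38.p14) were found for 6 of the 10 genes, as 9 windows for DUSP6, SPRY2, SPRY4, SPRED1, SPRED2 and PHLDA1. DUSP4, DUSP5, ETV4 and ETV5 had no entry. The 250 bases before each start were searched on both strands for the letters of sites of factors downstream of ERK and of HIF. For HIF, the core of the hypoxia response element was taken as ACGTG or GCGTG. The window of DUSP6, the gene that changed most among those with a window, is shown because it holds this core. It covers chr12:89352502-89352751 on the minus strand and is written 5′ to 3′ up to the start, with the match in capitals.
DUSP6: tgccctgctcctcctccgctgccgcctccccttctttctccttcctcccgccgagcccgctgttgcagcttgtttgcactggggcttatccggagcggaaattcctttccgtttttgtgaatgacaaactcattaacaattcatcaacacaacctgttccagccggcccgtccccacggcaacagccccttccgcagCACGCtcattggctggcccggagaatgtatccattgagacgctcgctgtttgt
The match is GCGTG read on the opposite strand, at bases 53 to 49 before the start. The core was found in 2 of the 9 windows, those of DUSP6 and the upstream start of SPRED2, and in 43.2% of all 35116 windows of this length. For ETS factors the letters CCGGAAG were searched (8.52% of all windows), for the repressor CIC either TGAATGAA or its variant TGAATGGA (2.19%), for AP-1 the letters TGAGTCA (4.20%), for the cAMP response element TGACGTCA (1.65%) and for serum response factor the CArG box (1.16%). None of these was in a window of the 6 genes, which says only that these letters are absent from these windows.

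Both Sprouty genes rose. SPRY2 (ENSG00000136158.12), an inhibitor of RAS activation by growth factor receptors, lies on the minus strand of chromosome 13 from 80910111 to 80915261. Its level was 12.2 and 12.5 CPM in 786-O-Ctrl and 21.0 and 20.2 CPM in 786-O-VHL. Replicates lay close together in both groups, and the log2 fold change was 0.73 (SE 0.136, edgeR FDR = 3.42e-05). The call was lost when all libraries were thinned to the shallowest (log2 fold change 0.41, FDR = 0.153). SPRY4 (ENSG00000187678.9), a Sprouty protein with a like role, lies on the minus strand of chromosome 5 from 141689992 to 141706020, with SPRY4-AS1 annotated on the opposite strand, whose reads cannot be told apart where strand was not used in counting. It was at 7.12 and 7.64 CPM in 786-O-Ctrl and at 16.3 and 12.2 CPM in 786-O-VHL (log2 fold change 0.84, SE 0.179, edgeR FDR = 0.000171). The 786-O-VHL replicates of SPRY4 differed by 0.41 on the log2 scale, the largest gap of any of the 10 genes, from 48 and 206 counts. SPRY2 made up 77.7% and 76.9% of the summed RPKM of both genes in 786-O-Ctrl, and 72.5% and 77.1% after VHL restoration, so that this share overlapped between the groups.

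Both Spred genes rose by less than the median of the 10 genes. SPRED2 (ENSG00000198369.10) spans bases 65537985 to 65659771 of chromosome 2 (minus strand), with a lncRNA annotated on the same strand. It was at 55.9 and 58.3 CPM in 786-O-Ctrl and at 81.1 and 75.5 CPM in 786-O-VHL (log2 fold change 0.43, SE 0.074, edgeR FDR = 9.78e-06). SPRED1 (ENSG00000166068.13), whose loss in the germline causes Legius syndrome, lies on the plus strand of chromosome 15 from 38545037 to 38649450. It was at 53.8 and 54.1 CPM in 786-O-Ctrl and at 63.1 CPM in both 786-O-VHL libraries. The log2 fold change of SPRED1 was 0.23 (SE 0.0762, edgeR FDR = 0.0112), and 71.3% of all genes tested changed by as much or more. This call was lost with DESeq2 (FDR = 0.180) and without any 1 of 3 libraries, the deeper 786-O-Ctrl (FDR = 0.139), the shallower 786-O-Ctrl (FDR = 0.111) and 786-O-VHL replicate 2 (FDR = 0.127). The window before the upstream start of SPRED2, at chr2:65432600-65432849 on the minus strand of GRCh38.p14, is the other one with the hypoxia response element core, at bases 75 to 71 before the start and shown in capitals.
SPRED2: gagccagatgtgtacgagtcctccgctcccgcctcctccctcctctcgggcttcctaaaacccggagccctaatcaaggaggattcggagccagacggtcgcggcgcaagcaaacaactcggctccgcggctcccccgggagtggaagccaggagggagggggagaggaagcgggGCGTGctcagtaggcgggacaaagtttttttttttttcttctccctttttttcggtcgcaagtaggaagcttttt

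The ETS factors ETV4 and ETV5 are close relatives of the PEA3 group, which ERK induces by relief from the repressor CIC. ETV5 (ENSG00000244405.8) lies on the minus strand of chromosome 3 from 185764103 to 185828107. It was at 47.0 and 50.6 CPM in 786-O-Ctrl and at 65.1 and 56.2 CPM in 786-O-VHL (log2 fold change 0.27, SE 0.0842, edgeR FDR = 0.00713). The call was lost with DESeq2 (FDR = 0.0922) and without the deeper 786-O-Ctrl library (FDR = 0.137). The gene DGKG overlaps ETV5 on the same strand, and ETV5-AS1 on the other, so reads may be divided between genes there. ETV4 (ENSG00000175832.13) lies on the minus strand of chromosome 17 from 41605212 to 41656988, with DHX8 overlapping on the opposite strand. It was at 10.4 CPM in both 786-O-Ctrl libraries and at 7.80 and 8.55 CPM in 786-O-VHL, from 218, 156, 23 and 144 counts. Its log2 fold change was -0.30 (SE 0.177, 95% interval -0.67 to 0.06, edgeR FDR = 0.135), so that a fall or no change could not be told apart at this depth. The intervals of ETV4 and of ETV5 (0.09 to 0.44) did not overlap, but the difference between both genes was not tested.

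PHLDA1 (ENSG00000139289.13), a pleckstrin homology-like protein whose mRNA is part of published ERK activity signatures, lies on the minus strand of chromosome 12 from 76419227 to 76425556, with PHLDA1-AS1 on the opposite strand. It was the most abundant of the 10 transcripts, at 110 and 124 CPM in 786-O-Ctrl and 306 and 281 CPM in 786-O-VHL. With 901 to 4737 counts in a library it also had the smallest error. The log2 fold change was 1.31 (SE 0.0692, edgeR FDR = 1.19e-15), and 11.0% of all genes tested changed by as much or more.

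**Figure D2:**
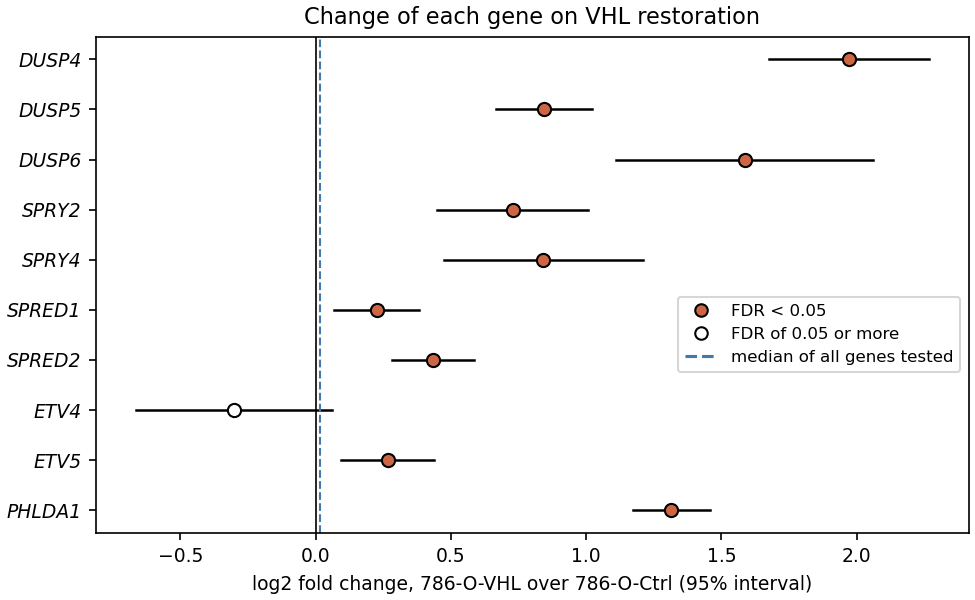
Log2 fold change (786-O-VHL over 786-O-Ctrl) of each gene with its 95% interval from the edgeR fit, n = 2 libraries per group. DUSP4, DUSP6 and PHLDA1 lie above 1, SPRED1 and ETV5 just above the median of all genes, and the interval of ETV4 includes 0.

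The order of the 10 transcripts per length was largely the same in both sublines. In 786-O-Ctrl it ran from PHLDA1 at 19.8 ± 1.69 RPKM (SD, n = 2) and DUSP5 at 16.4 ± 0.258 RPKM through SPRED2, ETV5, SPRED1, SPRY2, ETV4 and SPRY4 to DUSP4 at 0.957 ± 0.0224 and DUSP6 at 0.849 ± 0.139 RPKM. Among neighbors in this order, only DUSP4 and DUSP6 overlapped between libraries. In 786-O-VHL the first 6 places were held in the same order, from PHLDA1 at 49.6 ± 2.91 RPKM to SPRY2 at 6.42 ± 0.185 RPKM. DUSP4, at 3.89 ± 0.372 RPKM, and DUSP6, at 2.71 ± 0.522 RPKM, stood above ETV4, at 2.33 ± 0.151 RPKM, and SPRY4, at 2.18 ± 0.437 RPKM. DUSP6, ETV4 and SPRY4 overlapped as neighbors there. The lengths are those of all annotated exons together, so these levels would shift if only some isoforms were expressed.

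**Figure D3:**
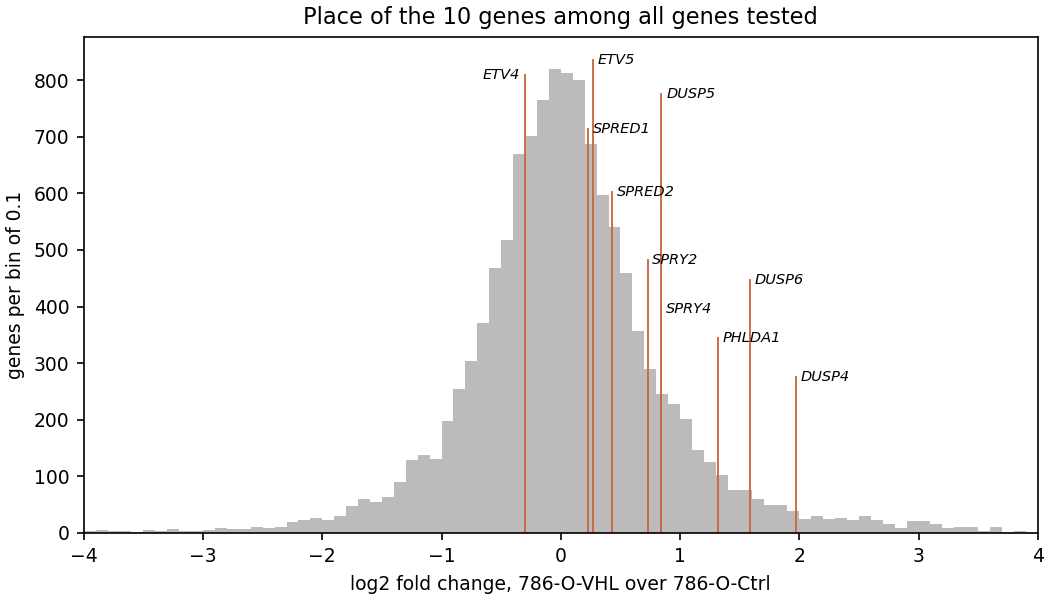
Histogram of the log2 fold change of the genes tested, in bins of 0.1, with the 10 genes as vertical lines whose heights only place the labels. Of the genes tested, 87 lie beyond 4 in either direction and outside the axis. All members but ETV4 lie to the right of 0, and DUSP4, DUSP6 and PHLDA1 in the right flank.

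For these 10 genes, though not for all genes called, the shallow 786-O-VHL replicate 1 was the more extreme of the 786-O-VHL libraries. The margin was minimal for SPRED1, at 63.1 CPM in both. On the scale of log2(CPM + 0.5) replicate 1 lay farther from the 786-O-Ctrl mean than replicate 2 for all 10 genes. The same held for 49.7% of the 4017 genes called higher and 51.9% of the 3939 called lower. Without replicate 1, the same 9 genes passed and the median log2 fold change of the 10 was 0.72, with DUSP4 at 1.92, DUSP6 at 1.48 and PHLDA1 at 1.27. Without replicate 2 the median was 0.92 and 8 genes passed.

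Around these 10 genes, 99 genes of the pathway in 8 lists were examined, and 91 could be tested. At FDR < 0.05, 39 of them were higher in 786-O-VHL and 29 were lower, or 74.7% called, and their median log2 fold change was 0.07. Since 64.5% of all genes tested were called, 32.6% as higher and 31.9% as lower, the counts of the lists that follow, in which 33.3% to 100% of the tested genes passed, are given as a description. With library totals in place of TMM the split was 42 to 19.

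The receptors and ligands upstream of ERK moved in both directions, with 8 higher and 5 lower of 15 tested and a median log2 fold change of 0.23. AREG and EREG encode ligands of EGFR. AREG rose from 9.26 and 10.2 CPM to 94.6 and 94.9 CPM (log2 fold change 3.29, SE 0.0966) and EREG from 239 and 255 CPM to 927 and 959 CPM (log2 fold change 1.94, SE 0.0628). FGFR2, a fibroblast growth factor receptor, rose by a log2 fold change of 1.89. TGFA, a further EGFR ligand and a known HIF target, fell from 631 and 654 CPM to 230 and 213 CPM (log2 fold change -1.55, SE 0.0654). HBEGF and PDGFB fell as well, with log2 fold changes of -0.56 and -0.39. The remaining genes of this list that passed were named after their values were seen. FGF2, a fibroblast growth factor, and EGFR itself rose, FGF2 from 102 and 101 CPM to 342 and 378 CPM (log2 fold change 1.84) and EGFR from 473 and 505 CPM to 829 and 921 CPM (log2 fold change 0.85, edgeR FDR = 3.04e-12). The receptor genes PDGFRB, AXL and FGFR1 rose with log2 fold changes of 0.70, 0.56 and 0.23, and MET and ERBB2 fell, with log2 fold changes of -0.35 and -0.28.

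The core of the cascade moved in both directions too. Of 21 tested genes, 9 were higher and 6 lower, with a median log2 fold change of 0.08. KSR1, a scaffold that holds RAF, MEK and ERK together, went from 7.79 and 8.57 CPM to 31.2 and 30.3 CPM (log2 fold change 1.91, SE 0.134, edgeR FDR = 6.66e-13). GAB1, an adaptor, and BRAF rose with log2 fold changes of 0.77 and 0.63. NRAS, MAP2K1 (MEK1) and RRAS fell, with log2 fold changes of -0.63, -0.43 and -0.35.

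Of 5 tested MAP kinase phosphatases outside the members, 1 was higher and 3 were lower. DUSP1, the phosphatase of the immediate early response, went from 119 and 127 CPM to 166 and 212 CPM (log2 fold change 0.67, edgeR FDR = 1.42e-08). DUSP9 and DUSP7 are the relatives of DUSP6 in the cytoplasm. DUSP9 fell from 6.36 and 6.85 CPM to 1.36 and 2.14 CPM (log2 fold change -1.71, SE 0.280, with 4 counts in 786-O-VHL replicate 1) and DUSP7 fell as well (log2 fold change -0.64, SE 0.109). DUSP10, which acts on JNK and p38, fell by 0.35 on the log2 scale. Of 10 atypical DUSP genes, DUSP3, DUSP12 and DUSP23 were lower (log2 fold changes -0.58, -0.39 and -0.24) and 2 were higher. The latter were DUSP19 and DUSP15, both with few counts. DUSP19 had 18, 15, 6 and 43 counts and a log2 fold change of 1.41 (SE 0.397). DUSP15 was named after its values were seen and had only 3, 1, 3 and 17 counts.

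Among relatives of the Sprouty, Spred and PHLDA members, 3 could be tested and 1 was called (33.3%, against 64.5% of all genes tested). Their median log2 fold change of 0.76 is the value of SPRED3 alone. SPRED3 rose (log2 fold change 0.76, SE 0.241, edgeR FDR = 0.00701). SPRY1 had 2 to 18 counts in a library and a log2 fold change of 0.91 (edgeR FDR = 0.146), and PHLDA3 one of -0.05 (edgeR FDR = 0.501); both are given although outside the rule for named genes. Other brakes on RAS and ERK gave 7 higher and 3 lower of 14 tested, with a median log2 fold change of 0.10. CBLB, a ubiquitin ligase that acts on receptors, and the RAS GTPase-activating proteins DAB2IP and RASAL2 rose, with log2 fold changes of 1.30, 0.92 and 0.55. LRIG1, which restrains EGFR, fell from 37.9 and 31.2 CPM to 11.9 and 10.5 CPM (log2 fold change -1.69, SE 0.137). PEA15, which binds ERK, and the RAF inhibitor PEBP1 fell by 0.40 and 0.30 on the log2 scale.

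ETS factors and repressors under ERK control were split, with 4 higher and 3 lower of 10 tested and a median log2 fold change of -0.06. ETV1, the other PEA3 relative, rose (log2 fold change 0.83, SE 0.194), as did ATXN1, a partner of CIC, and ELK4, with log2 fold changes of 0.70 and 0.31. ATXN1L was the other gene called higher and was named after its values were seen (log2 fold change 0.26). ETS2, ELK3 and ELK1 fell, with log2 fold changes of -0.41, -0.37 and -0.19. The repressor CIC itself, also named after its values were seen, went from 135 and 124 CPM to 123 and 126 CPM and did not pass (log2 fold change -0.05, SE 0.0672, edgeR FDR = 0.514).

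Of 13 other ERK target genes, 7 were higher and 6 lower, with a median log2 fold change of 0.21. EGR1, an immediate early transcription factor, rose from 3.85 and 2.13 CPM to 23.4 and 16.6 CPM (log2 fold change 2.57, SE 0.221). MYC rose from 158 CPM in both 786-O-Ctrl libraries to 384 and 446 CPM (log2 fold change 1.41, SE 0.0682), and the receptor gene EPHA4 rose by a log2 fold change of 1.06. CCND1 encodes cyclin D1 and is known both as an ERK target and as a HIF target in renal carcinoma cells. It fell from 1186 and 1213 CPM to 462 and 465 CPM (log2 fold change -1.37, SE 0.0607, edgeR FDR = 2.55e-17). SLC20A1 and HMGA2 fell by 0.44 and 0.38 on the log2 scale. The remaining genes of this list that passed were named after their values were seen. PLAUR, FOSL1 and LIF fell, with log2 fold changes of -0.31, -0.24 and -0.24. CDC42EP3, EPHA2, IER3 and TNFRSF12A rose, with log2 fold changes of 0.94, 0.58, 0.27 and 0.21, and the groups overlapped in CPM for TNFRSF12A. IER3 passed only narrowly (edgeR FDR = 0.0474).

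**Figure D4:**
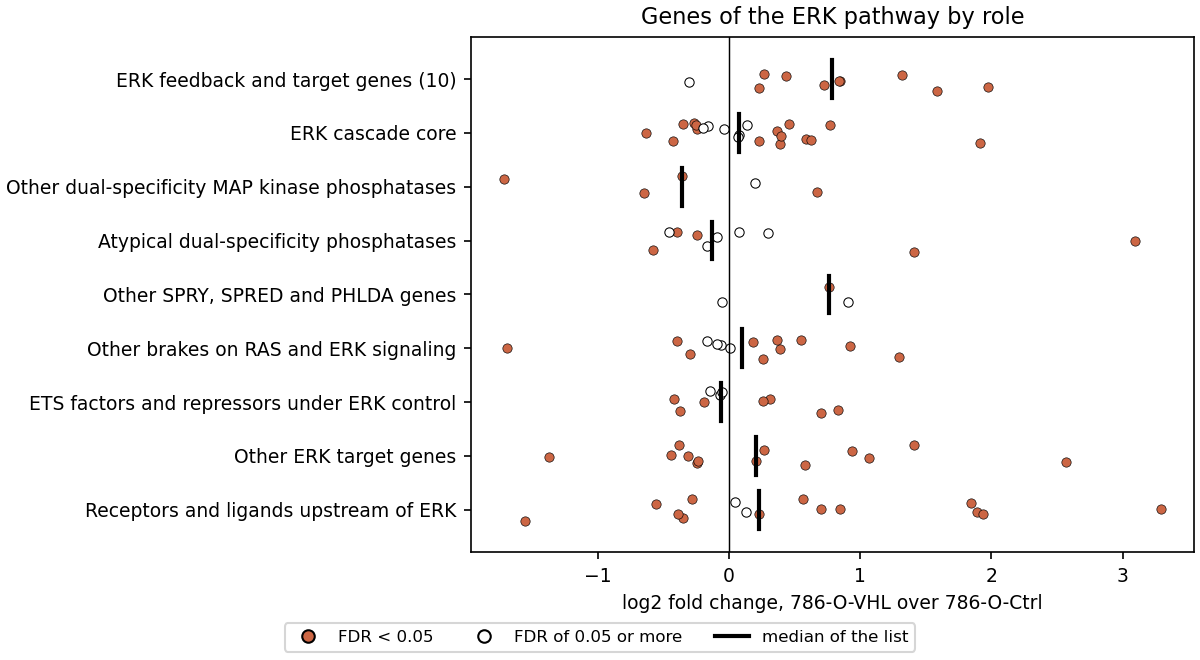
Log2 fold change (786-O-VHL over 786-O-Ctrl) of every tested gene of the 10 members and of the 8 lists, with 1 point per gene, spread vertically for legibility only, filled at an edgeR FDR under 0.05, and a bar at the median of each list. The members have a median of 0.78, and 7 lists have medians between -0.35 and 0.23. The median of the 3 tested relatives of the Sprouty, Spred and PHLDA members, 0.76, is the value of SPRED3.

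No exact permutation test of 2 libraries against 2 can give a two-sided p under 0.333, and the edgeR FDR values draw on a spread that is shared between genes.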

How the data were processed

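RNA of 2 samples per subline was sequenced. The authors aligned reads to hg19 (the submitters' processing notes name STAR and CASAVA) and deposited raw counts per gene for 12912 genes. How reads were assigned to genes, and whether by strand, is not given in the sources used here, so genes with antisense or overlapping partners are uncertain. The 10 genes and the gene lists were chosen with earlier results of these data known.

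Counts were tested with edgeR 4.0.16 (filterByExpr with a minimum count of 10, TMM, quasi-likelihood F test, Benjamini-Hochberg over 12335 genes; 577 genes were removed), with the group as the only term. The study used DESeq2. Standard errors are those implied by the F statistic. RPKM used exon lengths of a GENCODE annotation of GRCh37. Named genes were all members and, per list, up to 3 genes per direction with the largest change among those past FDR < 0.05 with groups not overlapping and a mean CPM of at least 1. The fit was also run on counts simulated from its own model with few genes changed. That setting is milder than these data, where most genes were called. Alternatives were DESeq2 1.42.0, limma-voom (limma 3.58.1), RLE or no composition factors, 2 other count filters, thinning to equal depth and leaving out each library.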

Additional observations from a re-analysis of the deposited data

How the results depend on the processing

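The 9 genes that rose kept their direction under all 11 alternatives, and 7 to 9 of them passed FDR < 0.05 in each. DUSP4, DUSP5, DUSP6, SPRY4, SPRED2 and PHLDA1 passed in every one. SPRED1 missed the threshold in 4, ETV5 in 2, and SPRY2 in 1, after thinning to the shallowest library (log2 fold change 0.41, FDR = 0.153). Thinning also brought ETV4 past the threshold as lower, so that 1 member was lower (log2 fold change -0.68, FDR = 0.0470), 1 member (DUSP6) passed 4-fold, and the median of the members fell to 0.57. Thinning draws reads at random and was run with 1 seed. Scaling by library totals moved the median of all genes to 0.15 and that of the members to 0.92, took 1 member (DUSP4) past 4-fold, and left 19 listed genes lower. With it 41.2% of all genes tested were higher. Leaving out 1 library at a time, the members' median ran from 0.72 to 0.92 and 0 to 1 members passed 4-fold. In those fits the lone library of a group was assumed to vary like the other group. No paired analysis was possible because both 786-O-Ctrl columns carry the same replicate number. Depth limits DUSP6, ETV4 and SPRY4, with 23 to 48 counts each in 786-O-VHL replicate 1.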
